A study of Mus musculus with 30 samples.

Results

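The genes described here encode proteins of the sheaths of the mouse sperm tail, or are expressed beside them in spermatids: Odf1, Odf2, Odf3, Odf4, Akap3, Fscn3, Ropn1, Ropn1l, Smcp and Oaz3. They were chosen by name, and all 10 were analysed at 24 h, among 16242 features, and 6 at 46 days, among 3082. Odf3, Odf4, Akap3 and Ropn1 had no entry among the 46-day counts, so their levels at that time are not known. Smcp, Oaz3 and Fscn3 are not themselves components of the outer dense fibres or the fibrous sheath.

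The tail of a mammalian sperm is built around a microtubule axoneme that is flanked by outer dense fibres. A helical mitochondrial sheath surrounds the fibres in the midpiece, and a fibrous sheath that anchors signalling and glycolytic enzymes surrounds them in the principal piece. The genes for these structures are transcribed in spermatids, and mature sperm, which are transcriptionally silent, carry remnants of the mRNAs.

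C57Bl/6J males received intraperitoneal tesaglitazar, an agonist of both PPARα and PPARγ, at 10 µg/kg (TESA) or the vehicle, DMSO in saline (CTRL). Injections began at 3 months of age and were given 2 times a week for 4 weeks. Sperm were taken from the cauda epididymis by swim-up with lysis of somatic cells, either 24 h or 46 days after the last injection. The 24 h set has 4 TESA and 4 CTRL libraries of polyadenylated RNA, and the 46-day set has 7 TESA and 7 CTRL libraries of total RNA depleted of ribosomal RNA. The time and the RNA selection cannot be told apart, so TESA was compared with CTRL within each set. The labels name libraries and not animals, the study counts fewer TESA animals at 46 days than the labels give libraries, and p-values measure the spread between these libraries.

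Total counts ran from 4538102 to 13513816 per library at 46 days and from 15337589 to 27709990 at 24 h. At 46 days the most counted features were Rn18s-rs5, with a share of 56.9%, and Yam1, with 17.5%. Outside the 5 most counted features, libraries held from 158820 counts in TESA library KG8-02 to 7119414 in CTRL library KG8-14. The 6 members together had 263 counts in KG8-02, 575 in TESA library KG8-12 and 37107 in KG8-14. At 24 h the 10 members had from 31217 counts in CTRL library ai_4 to 275874 in CTRL library ai_8. Levels are CPM, the counts of a feature for each 1e6 counts of the library total after TMM scaling, which is set by the features that libraries share. The TMM factors ran from 0.098 in KG8-02 to 8.15 in KG8-14 at 46 days, and from 0.771 to 1.57 at 24 h. The 46-day CPM thus depend strongly on this scaling: the 57 counts of Odf1 in KG8-02 are 6.51 per 1e6 unscaled and 66.4 CPM scaled. Transcript lengths were not used here, so CPM is compared between libraries and not between genes.

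At 46 days the groups overlapped for all 6 members, and none was called. Their log2 fold changes, TESA minus CTRL, ran from -0.25 for Odf2 to 0.11 for Ropn1l, with 3 above 0 and 3 below. The median was 0.03, beside -0.03 over all 2866 features tested. By edgeR's quasi-likelihood test 0 of the 6 members had an adjusted p under 0.05, beside 0% of all features. At an unadjusted p under 0.05 there were again 0 members, beside 152 features or 5.3%. DESeq2 also called 0% of the features, and edgeR's exact test called 14, or 0.488%, with no member among them.

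Odf1 encodes the major cysteine-rich protein of the outer dense fibres. At 46 days its lowest, median and highest CPM were 66.4, 90.1 and 145 in the 7 TESA libraries and 61.7, 97.0 and 134 in the 7 CTRL libraries. The highest library was TESA KG8-11 and the lowest CTRL KG8-13, so the groups overlapped over nearly their whole range. TESA minus CTRL was -0.05 in log2 (SE 0.21, adjusted p = 0.999 by edgeR's quasi-likelihood test).

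Odf2, a scaffold protein of the fibres that also serves at the centrosome, had a lowest, median and highest CPM of 54.1, 89.6 and 140 in TESA and 63.3, 134 and 148 in CTRL. TESA library KG8-12 was below every CTRL library, and 2 CTRL libraries were above every TESA library. Its log2 fold change of -0.25 (SE 0.24, adjusted p = 0.999, edgeR) stayed below 0 in each alternative tried. It was -0.11 without KG8-02 and KG8-12, and -1.16 with library totals, which shifted the median of all features by -1.06. As a share of the counts of the 6 members, which needs no scaling, Odf2 took 25.9% ± 2.59 (SD, n = 7) in TESA and 29.9% ± 3.30 (SD, n = 7) in CTRL. These shares overlapped, from 22.6% to 29.3% in TESA and from 25.5% to 35.2% in CTRL. The mean shares of Smcp (15.3% in TESA, 13.5% in CTRL) and Oaz3 (30.4% in TESA, 28.3% in CTRL) went the other way. All are shares of the same total, so a lower share of Odf2 requires higher shares among the other members. The shares of Smcp and Oaz3 are therefore not separate observations.

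Ropn1l belongs to the small family of proteins that dock on A-kinase anchoring proteins of the fibrous sheath. It was the member nearest to the count minimum, where 6 of 14 libraries had over 20 counts, and KG8-02 had 1 count. Its lowest, median and highest CPM were 1.164, 1.98 and 3.23 in TESA and 0.766, 2.07 and 3.14 in CTRL. The groups overlapped, and the log2 fold change was 0.11 (SE 0.32, adjusted p = 0.999, edgeR).

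Smcp encodes a cysteine-rich protein of the mitochondrial capsule in the midpiece. Lowest, median and highest CPM were 32.8, 55.5 and 73.5 in TESA and 27.6, 53.1 and 63.4 in CTRL. There were 3 TESA libraries above every CTRL library, while the lowest library was CTRL KG8-13. Of those 3, KG8-02 rested on 57 counts, and KG8-04, at 63.72 CPM, was just above the highest CTRL library, at 63.44. TESA minus CTRL was 0.09 in log2 (SE 0.21, adjusted p = 0.999, edgeR).

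Oaz3 encodes the antizyme of spermatids, which restrains polyamine synthesis and is needed for a firm head-to-tail junction. It had 62.4, 112 and 140 CPM as lowest, median and highest value in TESA and 73.0, 108 and 132 in CTRL. TESA libraries lay at both ends, with KG8-12 below and 3 libraries above every CTRL library. The log2 fold change was 0.07 (SE 0.19, adjusted p = 0.999, edgeR). Fscn3, the testis member of the actin-bundling fascins, ranged from 3.19 to 7.92 CPM in TESA and from 4.30 to 7.22 in CTRL, with a log2 fold change of -0.01 (SE 0.23, adjusted p = 0.999, edgeR). It had 5 counts in KG8-02 and 11 in KG8-12.

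**Figure D1:**
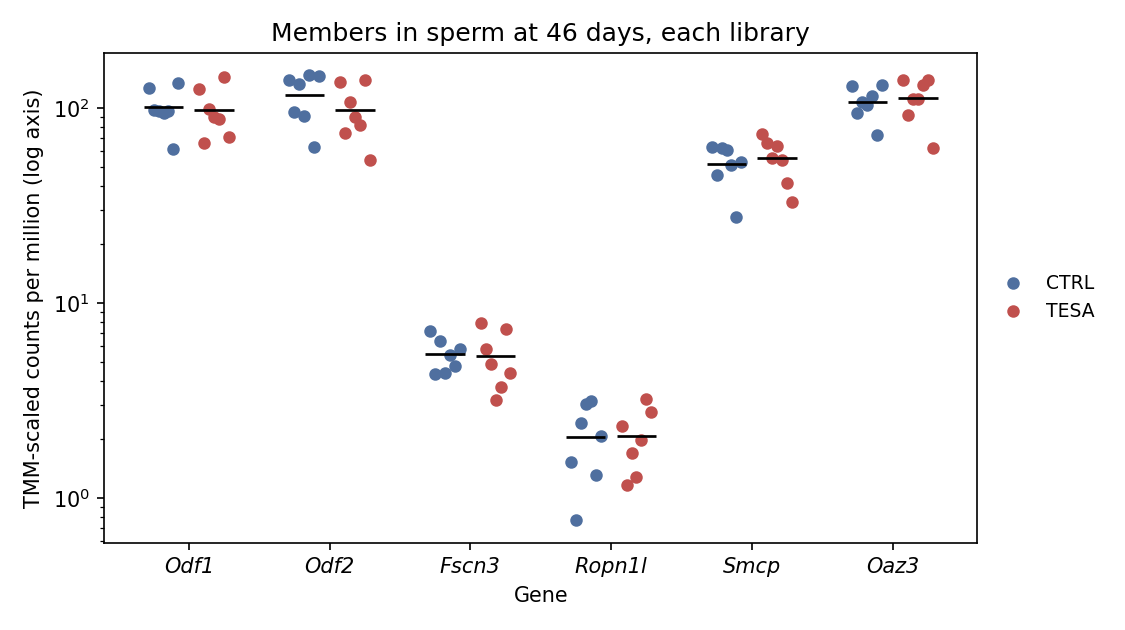
TMM-scaled CPM (log axis) of the 6 members in each 46-day library, with CTRL in blue, TESA in red (n = 7 each) and group means as bars. The groups overlap for each of the 6 genes, and Odf2 has the largest distance between means, 97.5 CPM in TESA and 117 in CTRL.

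The members' median at 46 days was close to that of all features under each scaling, and its sign changed with single libraries. When libraries were scaled by their totals instead, the median over all features shifted by -1.06 (log2), to -1.09, and the median of the members was -0.94, with all 6 members below 0 beside that shift. In that fit 206 features reached an unadjusted p under 0.05, and 0 were called (edgeR, quasi-likelihood). Under the same change the 24 h median over all features shifted by 0.21, to 0.19, and that of the 10 members was 0.30. Leaving out both KG8-02 and KG8-12 gave the members a median of 0.07, and the libraries KG8-01 to KG8-10 alone, which leave out 4 libraries whose higher numbers may mark a later batch, gave -0.11, with 0 members called in either fit. Without CTRL library KG8-13 all 6 members were below 0, Ropn1l by as little as -3.5e-05. Their median was -0.04, beside -0.04 over all features in that fit.

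At 24 h the groups overlapped for all 10 members, and none was called. There were 7 members with a log2 fold change above 0 and 3 below, from -0.28 for Smcp to 1.15 for Odf4, with a median of 0.15 beside -0.02 over all 13752 features tested. By edgeR's quasi-likelihood test 0 of the 10 members had an adjusted p under 0.05, beside 0% of all features, and the exact test and DESeq2 called 0 as well. At an unadjusted p under 0.05 there were 0 members, beside 372 features or 2.71%. CTRL library ai_4 was the lowest of the 8 for 8 members (Odf1, Odf2, Odf3, Akap3, Fscn3, Ropn1l, Smcp and Oaz3), with 0 counts of Akap3, and it had 0 counts of Odf4, as TESA library ai_1 did. Without it the members' median was -0.03, and 5 were above 0 and 5 below.

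Odf1 had 2710, 1284, 3176 and 1934 CPM in TESA libraries ai_1, ai_3, ai_5 and ai_7. In CTRL libraries ai_2, ai_4, ai_6 and ai_8 the values were 2317, 978, 2697 and 3377. The lowest and the highest library were both CTRL, and the log2 fold change was -0.04 (SE 0.43, adjusted p = 0.99998, edgeR). It was 0.19 without ai_8, 0.15 without ai_3 and -0.27 without ai_4.

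Odf2 had 347, 258, 499 and 206 CPM in ai_1, ai_3, ai_5 and ai_7 of TESA, and 365, 169, 288 and 324 in ai_2, ai_4, ai_6 and ai_8 of CTRL. TESA ai_5 was above, and CTRL ai_4 below, all libraries of the other group. The log2 fold change was 0.19 (SE 0.34, adjusted p = 0.99998, edgeR), and without ai_5 it was -0.07.

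Odf3, a tail protein first described in the outer dense fibres, and Odf4, a further tail protein found there, had few counts. Odf3 had 1.97, 0.995, 3.15 and 3.85 CPM in the TESA libraries ai_1, ai_3, ai_5 and ai_7, and 7.02, 0.566, 1.164 and 3.02 in the CTRL libraries ai_2, ai_4, ai_6 and ai_8. Its lowest and highest libraries were both CTRL. In log2, TESA minus CTRL was -0.23 (SE 0.79, adjusted p = 0.99998, edgeR), and without ai_2 it was 0.67.

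Odf4 had 0, 6.88, 4.34 and 5.39 CPM in TESA and 1.92, 0, 2.67 and 2.82 in CTRL, in the same order of libraries. The counts were 0, 159, 88 and 235 in TESA and 23, 0, 55 and 85 in CTRL. The groups overlapped, with an empty library in each, ai_1 of TESA and ai_4 of CTRL. With an SE of 1.29, the log2 fold change was 1.15 (adjusted p = 0.99998, edgeR).

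Akap3 anchors protein kinase A in the fibrous sheath. It had 8.94, 9.34, 13.3 and 5.67 CPM in TESA libraries ai_1, ai_3, ai_5 and ai_7, and 11.6, 0, 10.0 and 4.48 in CTRL libraries ai_2, ai_4, ai_6 and ai_8. Apart from the empty ai_4, the CTRL libraries lay within or just below the TESA range. The log2 fold change was 0.51 (SE 0.93, adjusted p = 0.99998, edgeR), and it was 0.11 without ai_4 and 0.95 without ai_2.

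Ropn1 and Ropn1l bind Akap3 through a domain like that of the regulatory subunit of protein kinase A. Ropn1 had 5.55, 3.76, 7.54 and 4.66 CPM in TESA and 2.17, 2.91, 5.97 and 5.07 in CTRL. CTRL libraries ai_2 and ai_4 were below every TESA library and ai_5 of TESA was above every CTRL library, with a log2 fold change of 0.41 (SE 0.44, adjusted p = 0.99998, edgeR). Without ai_5 or ai_2 it was 0.22, and without ai_6 0.66. Ropn1l ranged from 18.9 to 25.7 CPM in TESA and from 10.8 to 27.2 in CTRL, with a log2 fold change of 0.07 (SE 0.30).

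Smcp had 2861, 1092, 2271 and 1547 CPM in TESA libraries ai_1, ai_3, ai_5 and ai_7. In CTRL libraries ai_2, ai_4, ai_6 and ai_8 it had 1870, 780, 2781 and 3983. The CTRL libraries spanned a 5.11-fold range that enclosed all TESA libraries. The log2 fold change was -0.28 (SE 0.49, adjusted p = 0.99998, edgeR), and without ai_8 it was 0.10.

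Oaz3 had 1296, 637, 1761 and 965 CPM in ai_1, ai_3, ai_5 and ai_7 of TESA, and 1220, 575, 1156 and 1395 in ai_2, ai_4, ai_6 and ai_8 of CTRL. TESA ai_5 was highest and CTRL ai_4 lowest, as for Fscn3, and the log2 fold change was 0.10 (SE 0.38, adjusted p = 0.99998, edgeR). Without ai_5 it was -0.15. Fscn3 ranged from 14.0 to 31.6 CPM in TESA and from 8.41 to 23.3 in CTRL, with a log2 fold change of 0.34 (SE 0.36, adjusted p = 0.99998, edgeR). It was 0.12 without ai_5, 0.14 without ai_4 and 0.54 without ai_8.

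**Figure D2:**
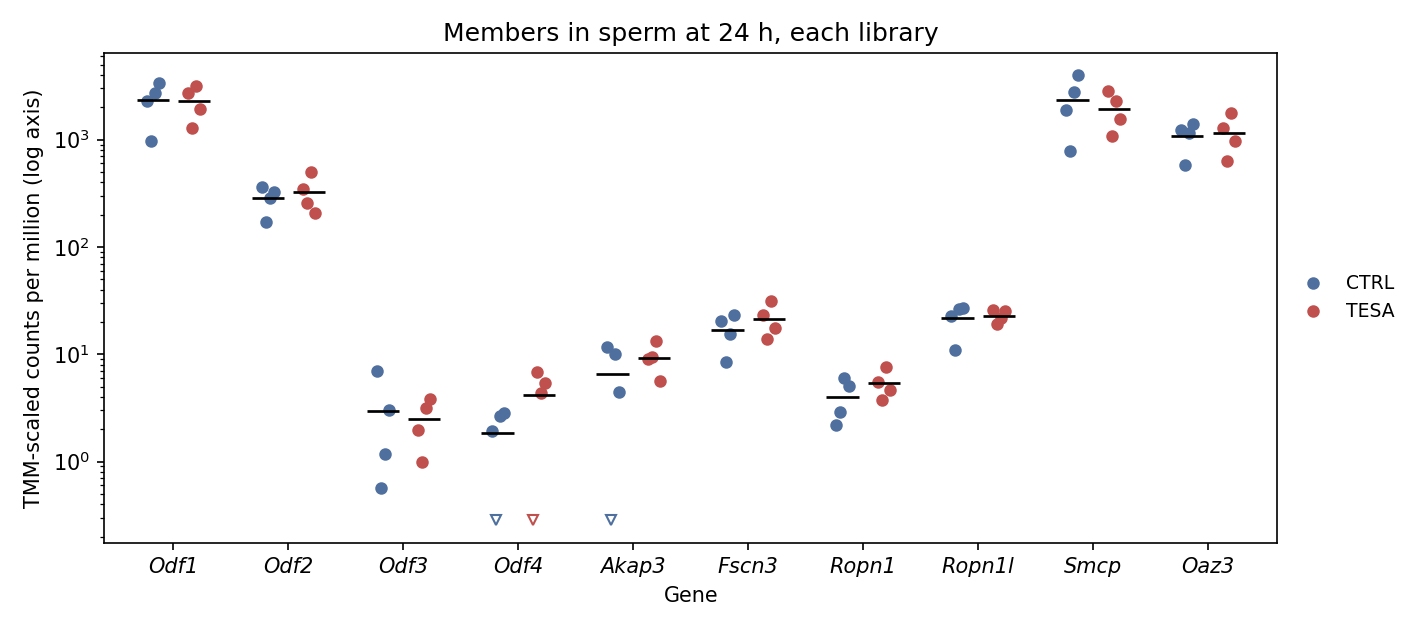
TMM-scaled CPM (log axis) of the 10 members in each 24 h library, with CTRL in blue, TESA in red (n = 4 each), group means as bars, and open triangles at the foot for libraries with 0 counts. The lowest point of CTRL is library ai_4 for Odf1, Odf2, Smcp and Oaz3, and Odf4 has an empty library in each group.

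The effect at 46 days minus that at 24 h was fitted in a single model over the 2680 features tested in both sets, 6 of them members, and it carries the RNA selection as well as the time. By edgeR's quasi-likelihood test 0 of the 6 were called, beside 0% of those features, and 127 features but no member had an unadjusted p under 0.05. The members' differences ran from -0.61 for Odf2 (SE 0.47) to 0.19 for Smcp (SE 0.50), with adjusted p = 0.994 for each by edgeR. Without ai_5 that of Odf2 was -0.32, and that of Fscn3 was -0.24 in place of -0.50.

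At 46 days the 15 pairs of members had Pearson correlations of log2 CPM from -0.01, for Ropn1l and Smcp, to 0.87, for Odf1 and Odf2, with a median of 0.42 over 14 libraries and a median Spearman correlation of 0.34. At 24 h the 45 pairs ran from -0.05, for Odf3 and Ropn1, to 0.97, for Odf1 and Oaz3, with a median of 0.62 over 8 libraries and a lower median Spearman correlation of 0.45. For Akap3 and Ropn1l, which both had their lowest value in ai_4, the Pearson value was 0.85 and the Spearman value -0.048. All genes of a library share its depth and scaling, and the part of these in the correlations was not tested.

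The mean profile of the members followed the sperm markers. The list of late spermatid and sperm markers holds 11 genes, among them the protamines Prm1 and Prm2, which package sperm DNA, and all 11 were used at both times, with Prm2 the most counted. It had a Pearson correlation of 0.95 with the summed level of these markers at 46 days (Spearman 0.94, n = 14, and 0.95 without the 2 farthest libraries). At 24 h it was 0.97 (Spearman 0.86, n = 8, and 0.86 without the 2 farthest). The markers summed to between 283 and 568 CPM in TESA and between 211 and 499 in CTRL at 46 days. Fewer sperm transcripts per cell and fewer sperm in a sample cannot be told apart in such bulk libraries. The summed CPM of the members divided by that of the markers was 0.901 ± 0.0816 (SD, n = 7) in TESA and 0.972 ± 0.0735 (SD, n = 7) in CTRL at 46 days, and 1.73 ± 0.307 (SD, n = 4) and 2.02 ± 0.447 (SD, n = 4) at 24 h. The ratios overlapped at both times, from 0.802 to 1.05 against 0.885 to 1.10, and from 1.37 to 2.12 against 1.55 to 2.44.

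**Figure D3:**
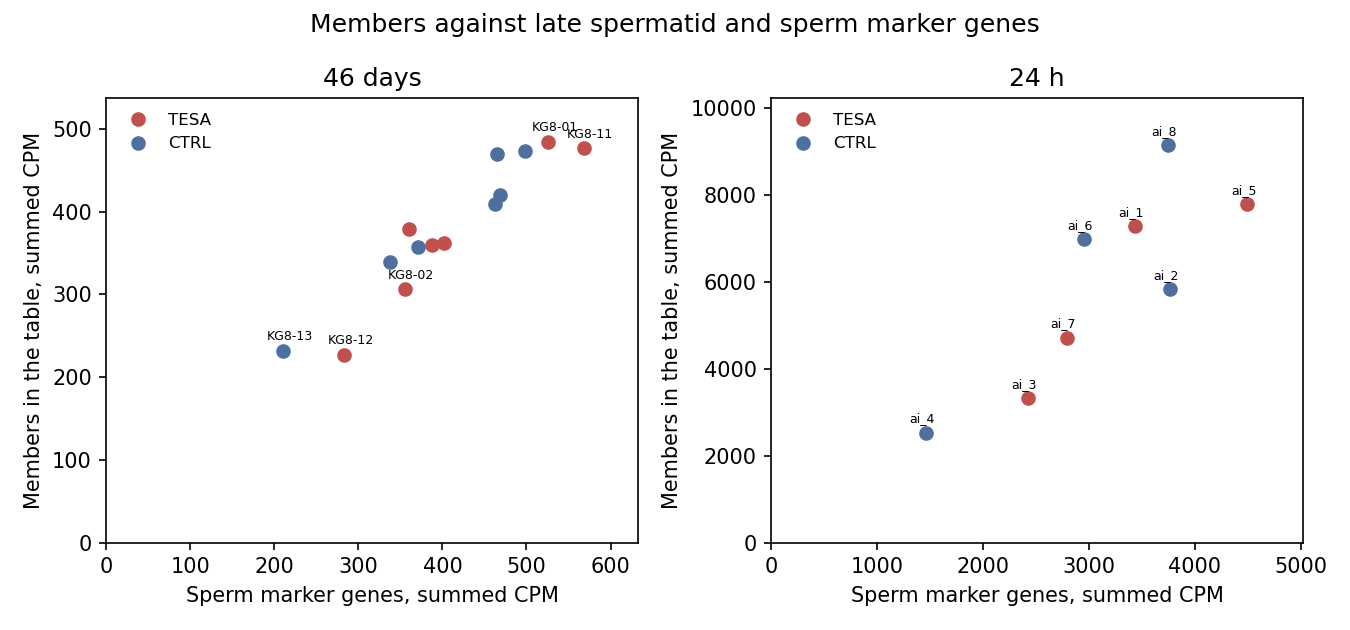
Summed CPM of the members in the table against summed CPM of 11 late spermatid and sperm marker genes, 1 point per library, at 46 days (left, n = 14) and 24 h (right, n = 8), with TESA in red and CTRL in blue. Libraries KG8-12 and KG8-13 at 46 days and ai_4 at 24 h are low on both axes, and the groups are intermixed.

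Markers of other cell types had counts at 24 h. All 10 leukocyte markers were used, led by Cd52, and summed to 2098, 1285, 2206 and 2582 CPM in TESA ai_1, ai_3, ai_5 and ai_7, and to 1712, 1202, 2068 and 1544 in CTRL ai_2, ai_4, ai_6 and ai_8. Cd52, which is also made by the epididymis, averaged 1644 CPM and so made up most of the sum, and the means of the other 9 ran from 4.41 to 66.3 CPM, with 7.09 for the general leukocyte marker Ptprc. Cd52 had a log2 fold change of 0.36 (SE 0.33) and Ptprc of -0.71 (SE 0.75), and the median of the 10 was -0.01. The correlation of the members with this sum, which is mainly Cd52, was 0.67 (Spearman 0.50, n = 8) and -0.30 without the 2 farthest libraries. Its part in the members' values was not tested.

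Of 11 markers of epididymal epithelium, 6 were used at 24 h, led by Crisp1, and they summed to between 946 and 1552 CPM in TESA and between 779 and 2413 in CTRL, with ai_8 highest (Pearson 0.41 with the members, Spearman 0.55, n = 8, and 0.58 without 2 libraries). The log2 fold changes of these 6 ran from -0.75 to 0.74, with a median of 0.25. The 4 blood markers, led by Hba-a2, summed to between 64.7 and 147 CPM in TESA and between 53.5 and 270 in CTRL. Those of the blood markers ran from -0.50 to -0.06, with a median of -0.35. The blood sum had a Pearson correlation of 0.39 with the members (Spearman 0.24, n = 8), and -0.67 without ai_8 and ai_4. For smooth muscle, 5 markers led by Tagln summed to between 26.8 and 77.3 CPM in TESA and between 11.9 and 35.6 in CTRL. Log2 fold changes of these 5 ran from 0.27 to 1.29, with a median of 0.77, and 0 had an unadjusted p under 0.05 (edgeR). The correlation of their sum with the members was 0.15 (Pearson, Spearman 0.33, n = 8), and -0.29 without ai_5 and ai_2. Of 5 Sertoli cell markers 1, Sox9, was used, at 1.504 to 4.50 CPM, and 0 of 6 spermatocyte and 0 of 5 Leydig cell markers were. The part of these sums in the members' values was not tested. At 46 days 0 of the markers on these 7 lists had an entry, and each of the 3082 features there passed 20 counts in 2 libraries or more.

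At 46 days the 5 features closest to the mean profile of the members were Pdzk1 (Pearson 0.99, Spearman 0.99), Ccdc136 (0.98, 0.96), Egln2 (0.95, 0.93), Dbil5 (0.95, 0.95) and Prm2 (0.94, 0.94), over 14 libraries. Without the 2 farthest libraries, KG8-12 and KG8-13, these Pearson values ran from 0.89 to 0.98. Oaz3 was taken as a single member for the same comparison because its mean CPM was highest, a choice that transcript length can alter and that was close, with means of 110 CPM for Oaz3 and 107 for Odf2. The features closest to Oaz3 were RP23-156O5.5, Hk1, Spata21, Kif17 and Actl11, at 0.93 to 0.90, and 0.72 to 0.87 without the same 2 libraries.

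At 24 h the closest to the mean profile were Car2, RP24-299B14.2, RP23-445K8.1, Smim24 and Tssk2, a kinase of spermatids, with Pearson correlations of 0.98 to 0.99 over 8 libraries. These were 0.83 to 0.97 without ai_3 and ai_4. Closest to Odf1, taken by the same rule at 24 h, were Gstm5 (Pearson 0.999, Spearman 1), Dnajb14, Syce2, RP24-158J4.1 and Klhl10, and they kept 0.96 to 0.998 without ai_3 and ai_4.

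Related genes were taken from 8 lists, and by edgeR's quasi-likelihood test 0 of their genes had an adjusted p under 0.05 at either time, while 1 of 25 tested at 46 days and 1 of 51 at 24 h had an unadjusted p under 0.05, beside 5.3% and 2.71% of all features. Of 7 relatives and partners of the outer dense fibre proteins, 3 were tested at 46 days, with a median log2 fold change of -0.12, and 5 at 24 h, with a median of -0.68, beside -0.03 and -0.02 over all features. Spag4, a membrane protein that binds Odf1, had -0.12 (SE 0.17) at 46 days and -0.34 (SE 0.33) at 24 h. Odf3b, a relative of Odf3, had -0.31 (SE 0.20) and -0.69 (SE 0.36), and Spag5 had -0.03 (SE 0.18) and -0.68 (SE 0.32). The levels of Spag5 at 24 h were 6.65 to 13.3 CPM in TESA and 11.1 to 21.2 in CTRL, so the groups overlapped.

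Of 8 other genes listed with the fibrous sheath, 5 were tested at each time, with medians of 0.14 and -0.24. Not all of them, Tcp11 among these, are established components of that sheath. Akap4, the main anchoring protein of the sheath, which is also on the sperm marker list, had 0.14 (SE 0.32) at 46 days and -0.24 (SE 0.27) at 24 h. Tcp11 had -0.16 (SE 0.39) and 0.18 (SE 0.32), the calcium-binding Cabyr had 0.30 (SE 0.20) and -0.26 (SE 0.28), and Spa17 had 0.19 (SE 0.33) and 0.14 (SE 0.32). Among 6 subunits of protein kinase A, the regulatory subunit Prkar2a, which binds the anchoring proteins, had 0.25 (SE 0.31) at 46 days as the subunit tested there. At 24 h 4 were tested, with a median of 0.15, and Prkar2a had 0.25 (SE 0.29), Prkar1a 0.04 (SE 0.23) and the catalytic Prkaca 0.07 (SE 0.24).

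Of 12 genes listed with the mitochondrial sheath, 4 were tested at 46 days, with a median of 0.08, and 11 at 24 h, with a median of 0.13. Not all of them, Spem1 among these, are established components of that sheath. Spata18 had -0.07 (SE 0.21) and 0.15 (SE 0.33), Spem1, also on the sperm marker list, had 0.02 (SE 0.16) and 0.16 (SE 0.33), and Akap1 had 0.15 (SE 0.18) and 0.28 (SE 0.32). Gpx4, the selenoenzyme that hardens the mitochondrial capsule, had 0.29 (SE 0.23) and 0.16 (SE 0.30). The glycerol kinase Gykl1 was the gene of this list with an unadjusted p under 0.05 at 24 h, where it had 2.60 to 5.27 CPM in TESA and 4.85 to 9.53 in CTRL and a log2 fold change, with overlapping groups, of -0.85 (SE 0.37, adjusted p = 0.99998, edgeR).

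Of 11 genes of the connecting piece, which joins head and tail, 8 were tested at 46 days and 11 at 24 h, with medians of -0.10 and 0.07. Hook1 had 0.04 (SE 0.19) and -0.36 (SE 0.23), Spatc1 had 0.49 (SE 0.30) and 0.07 (SE 0.34), Pmfbp1 had -0.04 (SE 0.23) and 0.32 (SE 0.97), and Spata6 had -0.58 (SE 0.31) and 0.15 (SE 0.36). Tektins, filaments of the axonemal microtubules, were tested at 24 h alone, all 5 of them, with a median of -0.06: Tekt1 had -0.41 (SE 0.36), Tekt2 -0.06 (SE 1.03) and Tekt4 0.01 (SE 0.43). Tekt1 and Tekt5 had counts at 46 days but were under the count minimum. Of the fascins Fscn1 and Fscn2, 0 passed it, and Fscn1 averaged 0.825 CPM at 24 h.

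Of 10 genes of antizymes and polyamines, 4 were tested at 46 days, with a median of 0.35, and 10 at 24 h, with a median of -0.03. Oaz1, the antizyme of most tissues, had an unadjusted p under 0.05 at 46 days, with 9.90 to 24.9 CPM in TESA, 5.79 to 15.2 in CTRL, overlapping groups, and a log2 fold change of 0.54 (SE 0.24, adjusted p = 0.882, edgeR). At 24 h it had 0.06 (SE 0.23). At 46 days the highest TESA values of Oaz1, Azin1 (22.5 CPM) and Odc1 (14.2 CPM) were all in KG8-12, a library with few counts. The highest CTRL values of Azin1 and Odc1 were 7.85 and 9.38 CPM. The part of KG8-12 in these log2 fold changes and in the median was not tested. The antizyme inhibitor Azin2 had 0.18 (SE 0.49) at 46 days and 0.15 (SE 0.40) at 24 h, and Odc1, the ornithine decarboxylase that antizymes bind, had 0.27 (SE 0.29) and 0.02 (SE 0.26).

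The members lie apart in the genome. In RefSeq, build GRCm38.p6, Odf1 (chr15:38219203-38226735) and Ropn1l (chr15:31441210-31453689) share a chromosome, as do Smcp (chr3:92583866-92589073) with Oaz3 (chr3:94433387-94436651) and Fscn3 (chr6:28427870-28438622) with Akap3 (chr6:126853098-126874308). Odf2 is at chr2:29889014-29931746, Odf3 at chr7:140847916-140850925, Odf4 at chr11:68921835-68927081 and Ropn1 at chr16:34649832-34678610. Oaz3 overlaps the annotated span of Tdrkh by 1468 bases, and Ropn1l spans the pseudogene Gm6361, and Smcp lies within the span of the lncRNA Gm35639.

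The RefSeq promoters used here held 8 of the members, and were searched on both strands. The search was for letters of the cAMP response element and the TATA box, from 250 bases before to 50 after the start. Odf1 and Oaz3 have the RefSeq positions given above but had no entry among these promoters. The letters TGACGTCA, the full cAMP response element, were in 0 of the 8 and in 1.79% of all 32851 promoters. The variant TGATGTCA was in Akap3, at 22 bases and at 1 base before the start, in Smcp, at 24 bases after it, and in 3.62% of all promoters, and TATAAA was in Fscn3 and in 13.6% of all. A match is a description of these letters and shows no binding.

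The stretch of Akap3 before its start (chr6:126853065-126853094, plus strand, GRCm38.p6) is shown with the first of its 2 matches to the variant in capitals, and that of Fscn3 (chr6:28427815-28427844, plus strand) with the reverse complement of TATAAA in capitals.
Akap3: tatagaaacagTGATGTCActagctgcaat
Fscn3: acaaaggtaaccTTTATAgtcacaatgctt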

How the data were processed

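Salmon 0.11.2 gave the estimated counts per gene or repeat family that the authors deposited, after trimming with Trim Galore and on build GRCm38, per the submitters' processing notes and the study's methods. Estimated counts need not be whole, and they were rounded to whole numbers here.

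Each sperm table was analysed with all its features. Features were tested where 6 or more libraries (46 days), or 4 or more (24 h), had over 20 counts. TMM factors over all features scaled the library totals, and TESA was compared with CTRL by edgeR 4.0.16 (quasi-likelihood test, R 4.3.3), with Benjamini-Hochberg adjustment over all features tested in that table. Standard errors are approximate, the log2 fold change divided by the root of the F statistic. Log2 CPM in correlations used a prior count of 2. The alternatives were DESeq2 1.42.0, its size factors, library totals, edgeR's exact test, other filters, mRNAs and lincRNAs alone, a batch term for KG8-11 to KG8-14 (a possible batch that the labels do not name), and libraries left out. The procedure was tested on simulated data.

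Members and gene lists were chosen with earlier results of these data known, and no test was made over a list. Named from each list of related genes were the 3 genes with the highest mean CPM in a table and any with an unadjusted p under 0.05. Azin1 was named in addition. The marker genes named were not all chosen by this rule. Named as most like the members were the 5 other features with the highest Pearson correlation. The serum data were not used here.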

Additional observations from a re-analysis of the deposited data

Results flagged for a closer look

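By Dixon's test on linear CPM no member had a library apart from its group, although Akap3 in CTRL ai_4 and Odf4 in TESA ai_1 and CTRL ai_4 had 0 counts at 24 h. The 5 smooth muscle markers summed to 77.3 CPM in TESA library ai_5 at 24 h, and the next of the 4 TESA libraries had 32.3 CPM. The gap was 0.892 of the group's range. The critical value used is the one that chance passes in about 1 in 20 groups, and 46 groups of members and marker sums were looked at. The same library was the highest of the 8 for Odf2, Akap3, Fscn3, Ropn1 and Oaz3, and the part of the markers in that was not tested.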

How the results depend on the processing

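No member had an adjusted p under 0.05 in any alternative run by edgeR or DESeq2, nor an unadjusted p under 0.05. Of 438 alternative values of the 22 single-gene results, 44 changed sign, 6 of them with library totals, and the cause was not tested for any of the 44. The calls at 24 h stayed at 0 in 15 alternatives, and at 46 days in 23 of 24, while the edgeR exact test called 14. The difference between times had 0 calls in 23 of 24 alternatives and 2 without ai_3, so leaving out single libraries gave 0 to 2. The cause was not tested.

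The members' median at 46 days was -0.94 with library totals. Leaving out single libraries gave -0.10 to 0.066 at 46 days and -0.030 to 0.30 at 24 h.

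With library totals, which shifted the median of all features by -1.06 at 46 days and 0.21 at 24 h, log2 fold changes at 46 days turned to -0.73 for Ropn1l, -1.18 for Smcp and -0.94 for Oaz3, those at 24 h to 0.087 for Odf1 and 0.19 for Odf3, and the difference between times to -0.91 for Smcp. Fscn3 at 46 days turned to 0.0078 with DESeq2 size factors in edgeR, 0.024 by the exact test and 0.040 by DESeq2. Ropn1l turned to -0.27 in KG8-01 to KG8-10 alone. Without KG8-02 and KG8-12, Odf1 turned to 0.073, and the difference between times to 0.046 for Odf1 and 0.0043 for Oaz3.

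Where leaving out 1 library changed the sign at 46 days, values ran from -0.16 to 0.050 for Fscn3, -0.021 to 0.14 for Oaz3, -0.17 to 0.034 for Odf1, -0.084 to 0.25 for Ropn1l and -0.026 to 0.16 for Smcp. At 24 h they ran from -0.15 to 0.30 for Oaz3, -0.27 to 0.19 for Odf1, -0.066 to 0.37 for Odf2, -0.55 to 0.67 for Odf3, -0.13 to 0.19 for Ropn1l and -0.54 to 0.099 for Smcp. The differences between times ran from -0.44 to 0.063 for Oaz3, -0.40 to 0.081 for Odf1, -0.38 to 0.10 for Ropn1l and -0.19 to 0.48 for Smcp. Of the results that kept their sign, Odf2 ran from -0.38 to -0.18 at 46 days, and Akap3 from 0.11 to 0.95, Fscn3 from 0.12 to 0.54, Odf4 from 0.77 to 1.59 and Ropn1 from 0.22 to 0.66 at 24 h, and the difference between times from -0.71 to -0.24 for Fscn3 and from -0.79 to -0.32 for Odf2.

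The level per length of transcript was not run. No paired analysis was possible because the groups compared share no replicate number. Depth limits Ropn1l and Fscn3 at 46 days, with 1 and 5 counts in KG8-02, and Odf3 at 24 h, with 7 in ai_4. The 0 counts of Akap3 and Odf4 allow up to 0.243 CPM in ai_4, and of Odf4 up to 0.185 CPM in ai_1 (3 counts, counting error alone), under the levels of the libraries with a count. A p that misses the threshold does not show that values did not differ.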

Other observations

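The make-up of the members' counts, which no scaling alters, differed between single libraries. In TESA library KG8-11 at 46 days Smcp took 8.68% of the counts of the 6 members, while in TESA library KG8-02 it took 21.7%, there on 57 counts. At 24 h Smcp took 43.5% in CTRL library ai_8 and 29.2% in TESA library ai_5, and Odf1 stayed between 36.9% and 41.0% in all 8 libraries.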
